A study of Homo sapiens with 6 samples.

Results

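Complex I (NADH:ubiquinone oxidoreductase) was followed at the RNA level in SUM1315 cells, an established human triple-negative breast cancer line, kept at low or ambient oxygen. Members were all protein-coding genes whose symbols begin with NDUFA, NDUFB, NDUFC, NDUFS or NDUFV, without NDUFA4 and NDUFA4L2. The rule gave 46 genes of 26409 with values, and 371 transcripts of 165956. They comprise 37 nuclear-encoded subunits, the 8 assembly factors named NDUFAF1 to NDUFAF8, and the readthrough gene NDUFC2-KCTD14. This rule uses gene symbols and no measured value, but the members were chosen with earlier results of these data known.

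The cells were labelled wild type and grew in DMEM-F12 with serum, insulin and EGF. The normoxia group (3 libraries) was labelled as kept at 21% oxygen, and the hypoxia group (3 libraries) stayed for 24 h at 1% oxygen in a closed chamber. The study addressed the production of ribosomes and ribosomal RNA under hypoxia. All 6 libraries come from 1 cell line. Whether replicates came from separate cultures is not stated in the labels. The p-values below therefore refer to the spread among these 6 libraries, and this spread may be technical.

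Complex I is the entry point of electrons from NADH into the respiratory chain. Its matrix arm holds the N module, which oxidises NADH, and the Q module, which reduces ubiquinone, while its membrane arm, the P module, pumps protons. Core subunits carry out catalysis, accessory subunits surround and stabilise them, and assembly factors join intermediates for a time but are absent from the finished enzyme. Cells in low oxygen are known to lean on glycolysis and to restrain respiration, largely under the HIF transcription factors.

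Values are RPKM (read counts scaled for transcript length and for library size), summed over the transcripts of a gene, and ± gives the SD over 3 libraries. Log2 fold changes are differences of mean log2(RPKM + 1), hypoxia minus normoxia, and SE is their standard error. The added 1 shrinks the changes of genes at low level. Adjusted p-values are from limma with Benjamini-Hochberg adjustment over the 11884 genes that exceeded 1 RPKM in 3 or more libraries, two-sided, with a threshold of 0.05. "Lowered" and "raised" are used only for genes past it. RPKM is a share of the sequenced RNA, and in bulk RNA fewer cells of a type and less RNA per cell cannot be told apart.

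The depth recovered from the smallest steps of the table was 50.4 to 50.9 M reads for the normoxic libraries and 44.0 to 50.6 M for the hypoxic ones. The correlation between normoxic replicates was 0.997 to 0.998, that between hypoxic replicates 0.993 to 0.995, and the median SD per gene on the log2 scale was 0.061 and 0.111. Genes known to respond to hypoxia rose: the log2 fold change was 2.88 for the glucose transporter SLC2A1, 2.45 for the mitophagy receptor BNIP3, 2.04 for the glycolytic kinase PGK1 and 1.07 for the growth factor VEGFA. CA9 stayed at 0.0639 RPKM or less and was not tested. Of the markers checked for the line, VIM, CD44 and EGFR lay between 8.997 and 7439 RPKM in each library. ERBB2, checked as a marker expected to be low or absent, was at 20.2 to 23.7 RPKM, above EGFR. PGR, checked likewise, had no values. ESR1 and the epithelial genes EPCAM, CDH1, KRT8, KRT18, KRT5 and KRT14 were at or near 0, at most 0.209 RPKM. FN1 was at 1.19 to 1.77 RPKM. Of the 5 markers of other cell types with values, those of leukocytes (PTPRC) and endothelium (PECAM1) were likewise at or near 0. CD68, COL1A1 and ACTA2 were at 30.8 to 406 RPKM and raised in hypoxia, with log2 fold changes of 0.71, 0.60 and 0.57. Their part in the results below was not tested.

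Of 45 tested members, 16 were lowered in hypoxia and 0 were raised. Among all tested genes 24.4% were lowered and 12.4% raised, so lowering was common in these libraries. The assembly factors stood lowest: 5 of 8 were lowered, with a median log2 fold change of -0.31. Of 36 tested subunits 11 were lowered (30.6%), with a median of -0.11 beside -0.08 for all tested genes. The log2 fold changes of single members lay between -0.62 for NDUFAF4 and 0.14 for NDUFB8.

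The hypoxic libraries lay wholly below the normoxic ones for 5 assembly factors and 14 subunits, and wholly above for no member. Over all tested genes the share wholly below was 35.6% and that wholly above 16.4%. The count of lowered subunits moved with the scaling. With median-of-ratios scaling, which brought the median of all tested genes to -0.01, it fell to 3 subunits and 3 assembly factors, beside 12.0% lowered and 17.01% raised among all genes. With libraries rescaled to equal sums it was 20 subunits and 6 assembly factors, beside 35.5% lowered. The distance of the assembly-factor median from that of all genes was -0.23 to -0.22 under the deposited scaling and these alternatives. That of the subunit median was -0.04 to -0.02. A factor per library shifts all genes nearly alike, so these distances could hardly change and are no check of the result.

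**Figure D1:**
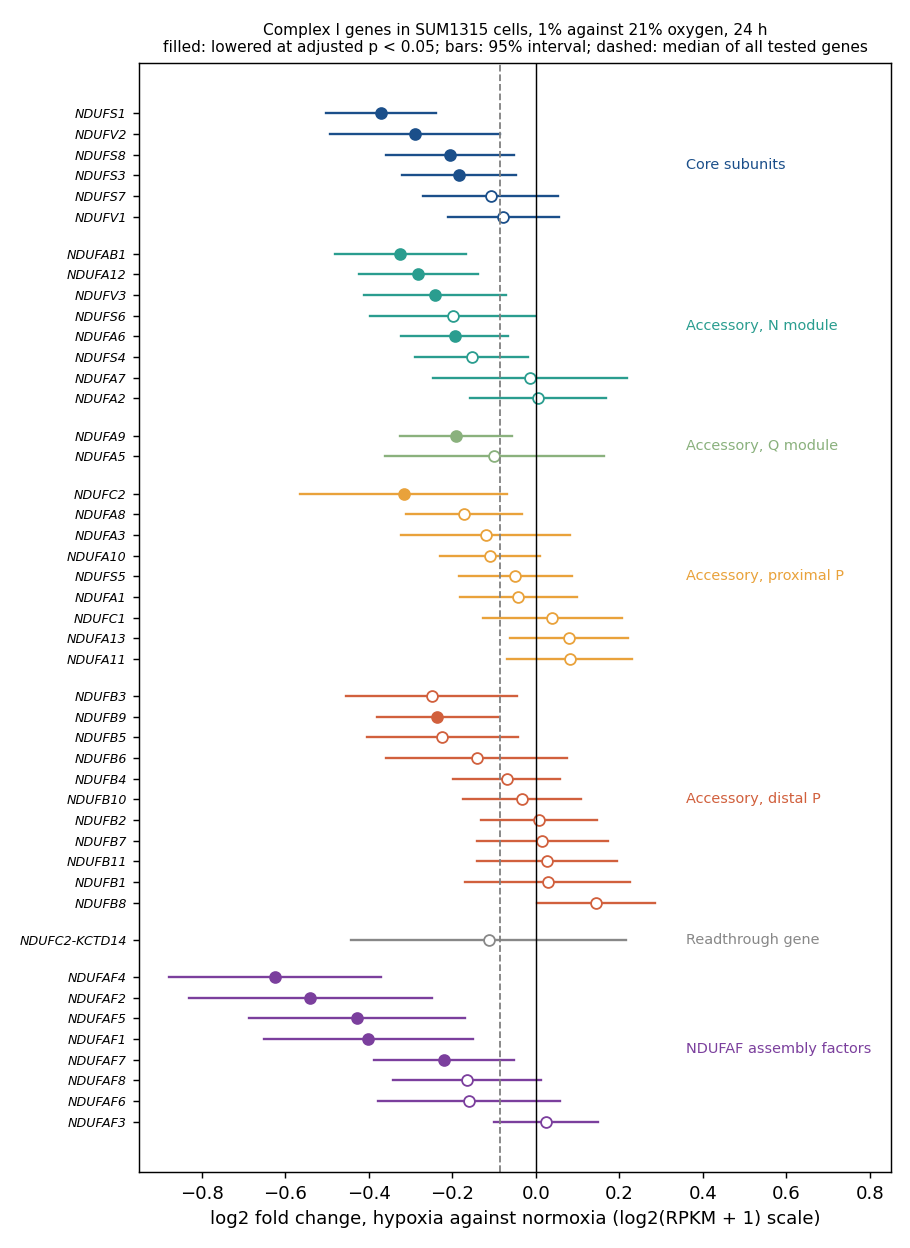
Log2 fold change (hypoxia against normoxia, log2(RPKM + 1) scale, x axis) of each tested member, grouped by role, with 95% confidence intervals; filled points are lowered at an adjusted p under 0.05 and the dashed line is the median of all tested genes. Filled points number 4 of 6 core subunits, 4 of 8 N-module accessory subunits, 5 of 8 assembly factors and 3 other accessory subunits. No filled point lies to the right of 0. Among all tested genes 24.4% were lowered.

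Of the core subunits, 4 of 6 tested were lowered, beside 24.4% of all tested genes. The median log2 fold change of the core subunits was -0.20. NDUFS1, the largest subunit of the N module and carrier of iron-sulfur clusters, had 34.6, 33.7 and 36.7 RPKM in normoxia and 27.4, 26.7 and 26.4 in hypoxia. The groups were well apart. It fell from 35.0 ± 1.57 to 26.8 ± 0.486 RPKM, and the log2 fold change was -0.37 (SE 0.06, adjusted p = 0.00121). NDUFS1 (chromosome 2, 206114817 to 206159603, minus strand, GRCh38) kept its call under all 17 alternative settings.

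NDUFV2, an iron-sulfur subunit of the NADH-oxidising tip, had 110.05, 114 and 121 RPKM in normoxia and 91.1, 110.45 and 82.5 in hypoxia. The second hypoxic library reached the lowest normoxic one, so the groups overlapped. Its log2 fold change was -0.29 (SE 0.09, adjusted p = 0.0309). The call was lost in 8 of 17 alternatives, among them median-of-ratios scaling and the fits without hypoxia replicate 1 or 3.

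NDUFS8, a Q-module subunit that carries iron-sulfur clusters, had 231, 237 and 231 RPKM in normoxia and 181, 212 and 215 in hypoxia. All hypoxic libraries were lower, the first by the widest margin. The log2 fold change was -0.21 (SE 0.07, adjusted p = 0.0386). NDUFS3, the Q-module subunit around which early assembly proceeds, had 106, 109.55 and 109 RPKM in normoxia and 88.6, 94.4 and 102 in hypoxia. Here too the groups did not overlap, and the log2 fold change was -0.18 (SE 0.06, adjusted p = 0.0378). NDUFS3 shares 19.6% of its exon bases with PTPMT1 on the same strand, so part of its reads cannot be assigned with certainty. The calls of NDUFS8 and NDUFS3 were lost in 7 and 9 of 17 alternatives, including median-of-ratios scaling and leaving out any 1 normoxic library or hypoxia replicate 1.

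The other core subunits tested did not pass. NDUFS7, which holds the last iron-sulfur cluster before ubiquinone, had 99.7, 107 and 100.7 RPKM in normoxia and 85.1, 96.6 and 104 in hypoxia. The groups overlapped, and the log2 fold change was -0.11 (95% confidence interval -0.27 to 0.05, adjusted p = 0.265). NDUFV1, which binds NADH and the flavin cofactor, had 122, 123 and 119.95 RPKM in normoxia and 106, 119 and 120.1 in hypoxia. Its log2 fold change was -0.08 (95% confidence interval -0.21 to 0.06, adjusted p = 0.331), with groups that overlapped.

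Among the accessory subunits the count varied by module. Each subunit was counted in 1 module only, NDUFAB1 in the N module. In the N module 4 of 8 were lowered (median -0.20) and in the Q module 1 of 2. In the proximal membrane arm 1 of 9 was lowered (median -0.05) and in the distal membrane arm 1 of 11 (median -0.03). Among all tested genes 24.4% were lowered, with a median of -0.08. No test was made of the difference between modules, and members of a module are not independent replicates. With median-of-ratios scaling the counts became 2 of 8 in the N module and 0 of 11 in the distal arm. Of all genes 12.0% were then lowered. When the libraries were rescaled to equal sums, the counts were 6 of 8 and 4 of 11, beside 35.5% of all genes. With the length trend removed 6 of 8 N-module, 5 of 9 proximal and 6 of 11 distal accessory subunits were lowered. The share of all genes lowered was 25.5%. GC and length trends were also removed together, a setting chosen after seeing the data. The counts were then 5 of 8, 8 of 9 and 5 of 11, beside 29.6% of all genes. The proximal module had the highest share in this setting.

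NDUFA12, an N-module subunit that is added late and is a paralogue of the assembly factor NDUFAF2, had 44.9, 43.2 and 44.5 RPKM in normoxia and 34.9, 39.3 and 34.6 in hypoxia. Every hypoxic library was below every normoxic one. The log2 fold change was -0.28 (SE 0.06, adjusted p = 0.00740), and the call held under all 17 alternatives. NDUFAB1, the mitochondrial acyl carrier protein, which also serves fatty acid synthesis, had 107, 114 and 121 RPKM in normoxia and 88.1, 99.7 and 85.5 in hypoxia. The groups were apart, the log2 fold change was -0.32 (SE 0.07, adjusted p = 0.00594), and the call was lost only when genes of any level entered the test. NDUFA6, a small LYR protein that binds the acyl carrier protein, had 57.9, 61.5 and 58.9 RPKM in normoxia and 49.5, 53.9 and 52.1 in hypoxia. It was lowered without overlap (log2 fold change -0.19, SE 0.06, adjusted p = 0.0242). This call was lost in 6 of 17 alternatives, among them median-of-ratios scaling and leaving out any 1 normoxic library.

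Named after their values were seen are 4 further N-module subunits. NDUFV3 was lowered, by -0.24 (SE 0.08, adjusted p = 0.0309), from 14.6, 14.4 and 14.7 RPKM to 10.9, 13.1 and 12.6. Its most abundant transcript is annotated as non-coding (NDUFV3-203, 49.4% of the sum). The call was lost in 8 of 17 alternatives, among them protein-coding transcripts only, median-of-ratios scaling and leaving out any 1 normoxic library or hypoxia replicate 1. NDUFS4, a frequent site of inherited complex I deficiency, had 19.0, 20.1 and 19.4 RPKM in normoxia and 17.6, 17.6 and 17.2 in hypoxia. The libraries were apart, and the adjusted p was 0.0706. NDUFA2 (63.2 ± 3.72 and 63.5 ± 5.62 RPKM) and NDUFA7 (16.9 ± 2.31 and 16.8 ± 2.22) differed by less than their spread.

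In the Q module NDUFA9, which sits where the arms meet, had 46.0, 45.1 and 49.3 RPKM in normoxia and 41.6, 39.2 and 41.9 in hypoxia. It was lowered without overlap (log2 fold change -0.19, SE 0.06, adjusted p = 0.0309). Some 79.0% of its sum lay on a transcript annotated with a retained intron. The call was lost in 9 of 17 alternatives, among them protein-coding transcripts only, median-of-ratios scaling, the GC trend removed and leaving out any 1 normoxic library or hypoxia replicate 2.

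Of the proximal membrane-arm subunits NDUFC2 was lowered, with 104, 115 and 116 RPKM in normoxia and 79.2, 112 and 80.2 in hypoxia. The second hypoxic library lay within the normoxic range and the others were well below it. The log2 fold change was -0.32 (SE 0.11, adjusted p = 0.0471), and the call was lost in 9 of 17 alternatives, among them leaving out hypoxia replicate 1 or 3. The readthrough gene NDUFC2-KCTD14, which shares 52.2% of its exon bases with NDUFC2, had the lowest normoxic level of the tested members, 3.86 ± 0.829 RPKM, and stood at 3.50 ± 0.857 in hypoxia. NDUFS5 was the most abundant member per length, at 452 ± 29.5 RPKM in normoxia and 437 ± 11.2 in hypoxia (log2 fold change -0.05, adjusted p = 0.550).

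Of the distal membrane-arm subunits NDUFB9, an LYR protein, was lowered from 205, 200.5 and 211 RPKM to 160.4, 189.7 and 174. The groups did not overlap, and the log2 fold change was -0.24 (SE 0.07, adjusted p = 0.0183). The call was lost in 5 of 17 alternatives, among them median-of-ratios scaling and the fits without normoxia replicate 1 or 3. NDUFB8, named after its value was seen, had 150.4, 157 and 149 RPKM in normoxia and 154, 178 and 174 in hypoxia. The first hypoxic library overlapped the normoxic range. The log2 fold change of 0.14 (95% confidence interval 0.00 to 0.29, adjusted p = 0.0963) did not pass the threshold. It passed with median-of-ratios scaling (0.23, adjusted p = 0.0213) and without hypoxia replicate 1 (0.21, adjusted p = 0.0125). With GC and length trends removed together it was -0.0087. NDUFA11 and NDUFA13, also named after their values were seen, were raised without hypoxia replicate 1 (0.16 and 0.14) and were lowered with both trends removed (-0.18 and -0.11). The other membrane-arm subunits had log2 fold changes from -0.25 to 0.08. Closest to the threshold were NDUFA8 (-0.17, adjusted p = 0.0512), NDUFB5 (-0.22, adjusted p = 0.0522) and NDUFB3 (-0.25, adjusted p = 0.0553), named after their values were seen, each with all hypoxic libraries below the normoxic ones. NDUFB8 shares exon bases with HIF1AN on the other strand (16.3% of its own), at 8.48 RPKM for HIF1AN against 160.3 for NDUFB8, and the libraries did not mark strand.

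**Figure D2:**
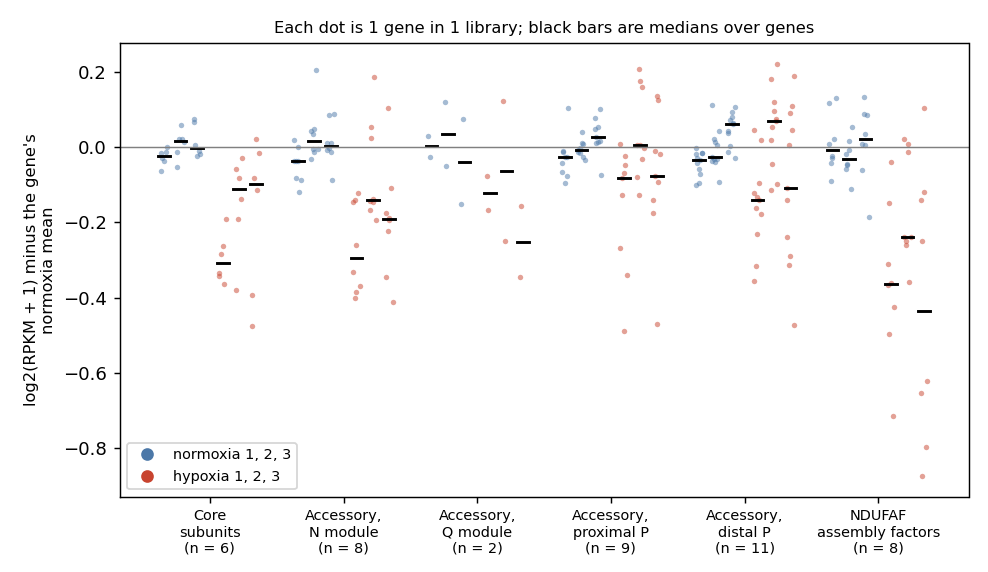
Each dot is 1 gene in 1 library, plotted as log2(RPKM + 1) minus the mean of that gene in normoxia (y axis), by role (x axis); blue are normoxia 1, 2 and 3, red are hypoxia 1, 2 and 3, and black bars are medians over genes. The median of the distal membrane-arm subunits was above 0 in hypoxia 2 and below 0 in hypoxia 1 and 3, while the assembly-factor median was below 0 in each hypoxic library.

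The subunit median was below 0 in each hypoxic library but differed in size among them. Relative to the normoxic mean, the median over 36 subunits was -0.17, -0.02 and -0.13 in hypoxia 1, 2 and 3. The median of all tested genes was -0.08, -0.08 and -0.07 in the same libraries. A median over 11884 genes varies less than a median over 36, so these spreads are not compared. For the core subunits the median was -0.31, -0.11 and -0.10, and for the distal membrane arm -0.14, 0.07 and -0.11. The assembly factors were lower in each, at -0.36, -0.24 and -0.44. The SD of their median over the hypoxic libraries was 0.0997, beside 0.0807 for the subunits. These medians are over 8 and 36 genes, and their spreads are likewise not compared. The cause of these differences among the hypoxic libraries was not tested.

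All 8 assembly factors passed the level filter, and none was raised. NDUFAF4, which acts with NDUFAF3 on early Q-module intermediates, had 6.02, 5.40 and 6.34 RPKM in normoxia and 3.21, 4.38 and 2.98 in hypoxia. Each hypoxic value was lower than each normoxic one. It fell from 5.92 ± 0.477 to 3.52 ± 0.756 RPKM, the lowest fold change among members, at -0.62 on the log2 scale (SE 0.12, adjusted p = 0.00253). NDUFAF4 lies on chromosome 6, 96889313 to 96897881, on the minus strand (GRCh38). The call was lost only when genes of any level entered the test.

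NDUFAF2, which holds the place of NDUFA12 on late intermediates, had 14.3, 14.8 and 16.8 RPKM in normoxia and 10.5, 12.7 and 7.86 in hypoxia. The third hypoxic library was the lowest and the groups did not overlap. The means were 15.3 ± 1.36 and 10.35 ± 2.41 RPKM, and the log2 fold change was -0.54 (SE 0.13, adjusted p = 0.0100). This paralogous pair, NDUFAF2 and NDUFA12, was lowered in both its members, and both calls held under each alternative that kept the level filter.

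NDUFAF5, which hydroxylates an arginine of NDUFS7, had 4.66, 4.37 and 3.55 RPKM in normoxia and 2.85, 3.39 and 2.36 in hypoxia. The groups were separated by a narrow gap. The log2 fold change was -0.43 (SE 0.12, adjusted p = 0.0165). The call was lost in 3 of 16 alternatives: without normoxia replicate 1 or 2, and when genes of any level entered the test. NDUFAF1, part of the MCIA complex that builds the proximal membrane arm, had 5.50, 4.75 and 4.75 RPKM in normoxia and 3.83, 4.07 and 2.81 in hypoxia. It was lowered without overlap (log2 fold change -0.40, SE 0.11, adjusted p = 0.0189). That call was lost in 4 of 16 alternatives, among them median-of-ratios scaling and the fit without normoxia replicate 1. NDUFAF5 and NDUFAF1 did not enter the test with a filter of more than 5 RPKM.

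NDUFAF7, a protein arginine methyltransferase of early assembly, had 9.34, 9.31 and 10.3 RPKM in normoxia and 8.60, 7.89 and 7.96 in hypoxia. The groups did not overlap, and the log2 fold change was -0.22 (SE 0.08, adjusted p = 0.0427). The call was lost in 11 of 17 alternatives. NDUFAF7 shares 7.26% of its exon bases with PRKD3 on the other strand.

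The other assembly factors did not pass. NDUFAF6, which takes part in early assembly, had 6.44, 6.31 and 6.45 RPKM in normoxia and 4.74, 6.52 and 5.71 in hypoxia (log2 fold change -0.16, 95% confidence interval -0.38 to 0.06, adjusted p = 0.217). NDUFAF8, which stabilises NDUFAF5, had 122, 124 and 127 RPKM in normoxia and 96.4, 123 and 114 in hypoxia (log2 fold change -0.16, 95% confidence interval -0.34 to 0.01, adjusted p = 0.129). In both the second hypoxic library overlapped normoxia. NDUFAF3, the partner of NDUFAF4, had 97.7, 100.3 and 99.6 RPKM in normoxia and 96.6, 99.8 and 106.7 in hypoxia. The groups overlapped, with a log2 fold change of 0.02 (95% confidence interval -0.10 to 0.15, adjusted p = 0.755). The sign of this value depended on the setting: it was -0.04 with libraries rescaled to equal sums. NDUFAF3 shares 21.7% of its exon bases with DALRD3 on the other strand.

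**Figure D3:**
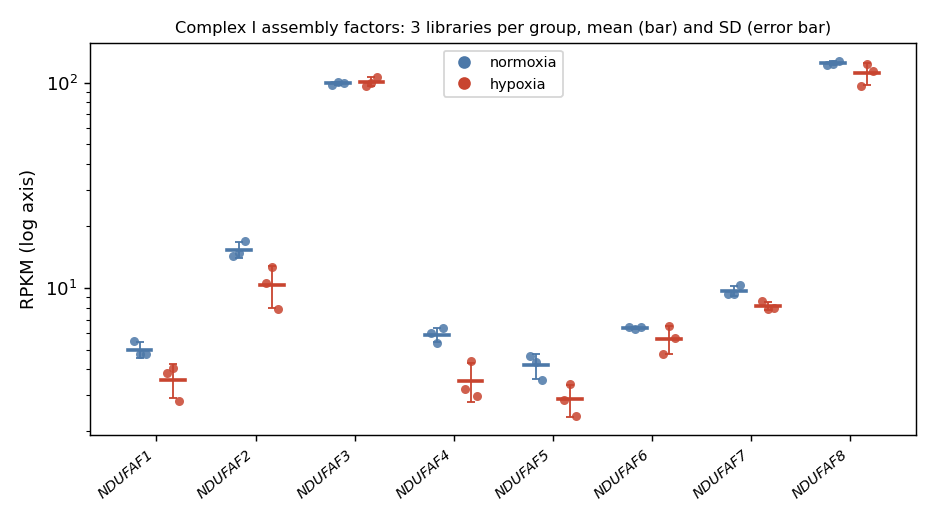
RPKM (y axis, log scale) of the 8 assembly factors in 3 normoxic (blue) and 3 hypoxic (red) libraries, with the mean as a bar and the SD as an error bar. NDUFAF1, NDUFAF2, NDUFAF4, NDUFAF5 and NDUFAF7 show no overlap between groups, and NDUFAF3 and NDUFAF8 sit at about 100 RPKM, far above the others.

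Sequence upstream of lowered members was read from RefSeq promoter windows (GRCh38.p14), which gave 52 start sites for 40 members. For 6 of these windows, the one of NDUFAF4 among them, the sequence after the start was found in no GENCODE 29 transcript of the gene. The windows of 250 bases before the start were searched on both strands for the hypoxia response core (ACGTG or GCGTG), the ETS and GABP motif CCGGAAG and the palindromic NRF1 motif. NRF1 and GABP are known activators of respiratory chain genes. The letters CACGTG hold the core on both strands and counted as 2 matches. The stretches printed here lie outside annotated exons and belong to the lowered member with the lowest fold change (NDUFAF4) and, chosen after their values were seen, to NDUFAF5, NDUFA12 and NDUFAB1, which show windows with and without the hypoxia response core. Capitals mark matches, and each sequence is written 5′ to 3′ along the strand of its gene. NDUFAF4 is chr6:96897892-96898141 (minus), NDUFAF5 chr20:13784887-13784949 (plus), NDUFA12 chr12:95003771-95003947 (minus) and NDUFAB1 chr16:23596357-23596566 (minus).
NDUFAF4: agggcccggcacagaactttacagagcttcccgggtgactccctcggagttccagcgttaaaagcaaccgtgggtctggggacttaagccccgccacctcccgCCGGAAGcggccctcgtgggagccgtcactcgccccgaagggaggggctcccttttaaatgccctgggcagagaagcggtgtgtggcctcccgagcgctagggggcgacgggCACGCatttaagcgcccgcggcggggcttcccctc
NDUFAF5: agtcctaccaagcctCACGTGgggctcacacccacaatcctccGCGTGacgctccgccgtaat
NDUFA12: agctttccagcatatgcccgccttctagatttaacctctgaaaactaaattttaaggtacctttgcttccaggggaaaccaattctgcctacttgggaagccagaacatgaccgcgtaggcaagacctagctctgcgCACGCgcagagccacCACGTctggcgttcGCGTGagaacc
NDUFAB1: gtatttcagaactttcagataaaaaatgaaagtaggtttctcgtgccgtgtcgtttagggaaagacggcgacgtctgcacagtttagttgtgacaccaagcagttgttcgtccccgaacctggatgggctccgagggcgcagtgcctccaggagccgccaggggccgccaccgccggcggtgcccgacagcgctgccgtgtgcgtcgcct

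In these stretches NDUFAF4 held 1 match to the hypoxia response core and 1 to the ETS and GABP motif, and NDUFAB1 held neither. The whole windows of 250 bases of NDUFAF5 and NDUFA12 held 5 and 4 matches to the hypoxia response core. The hypoxia response core was in 31 of 52 member windows (59.6%) and in 43.2% of 35114 promoters of the same length. It was in 11 of 15 windows of lowered members and in 20 of 37 of the others. The 15 windows belong to 14 of the 16 lowered members: NDUFS1 has 2 windows, and NDUFB9 and NDUFC2 were not matched. CCGGAAG was in 7 of 52 member windows (13.5%) and in 8.52% of all promoters, and the NRF1 motif in 1 of 52 and in 1.03% of all. A match of letters is no measure of binding.

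Levels differed between the classes. The median over genes of the mean level in all 6 libraries was 91.8 RPKM for the subunits, 7.47 for the assembly factors and 10.3 for all tested genes. The lowered assembly factors rested on 120 to 1007 estimated reads per library, NDUFS1 on 2941 to 4690. Among genes with a mean of 1 to 20 RPKM, 21.3% were lowered with a median of -0.08, while 5 of 6 assembly factors and 1 of 6 subunits in that range were lowered, with medians of -0.41 and -0.12. Between 20 and 100 RPKM, 33.9% of all genes and 4 of 14 subunits were lowered, with medians of -0.11 and -0.15. Between 100 and 500 RPKM, 24.2% of all genes, 6 of 16 subunits and 0 of 2 assembly factors were lowered. The assembly factors above 100 RPKM are NDUFAF3 and NDUFAF8.

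GC content moved with the fold change over all genes and over the members. Across genes, which are not independent replicates and share these libraries, the correlation was 0.353 over 11884 tested genes and 0.569 over 45 members (Pearson; Spearman's rho 0.420 and 0.544). Of genes with less than 46.2% GC, the lowest of 3 equal groups, 36.5% were lowered (median -0.19). In that group 5 of 5 assembly factors (median -0.43) and 2 of 8 subunits (median -0.19) were lowered. In the middle group 24.5% of all genes (median -0.08) and 8 of 18 subunits (median -0.18) were lowered. In the group above 55.4%, 12.2% of all genes, 1 of 10 subunits and 0 of 2 assembly factors were lowered. When the GC trend was removed in each library, 13 subunits and 6 assembly factors were lowered beside 27.5% of all genes. NDUFAF3, with 63.9% GC, then stood at -0.14 and passed the threshold (adjusted p = 0.0273), and NDUFAF7 no longer did.

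Transcript length also went with the fold change. The expression-weighted length had a median of 772 bases in the subunits, 1269 in the assembly factors and 2369 in all tested genes. The correlation with the fold change was -0.373 over the members and -0.209 over all genes (Pearson). When the length trend was removed, 22 subunits were lowered (median -0.22) beside 25.5% of all genes (median -0.08). The part of GC content and length in the differences between hypoxia and normoxia was not tested beyond these fits.

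**Figure D4:**
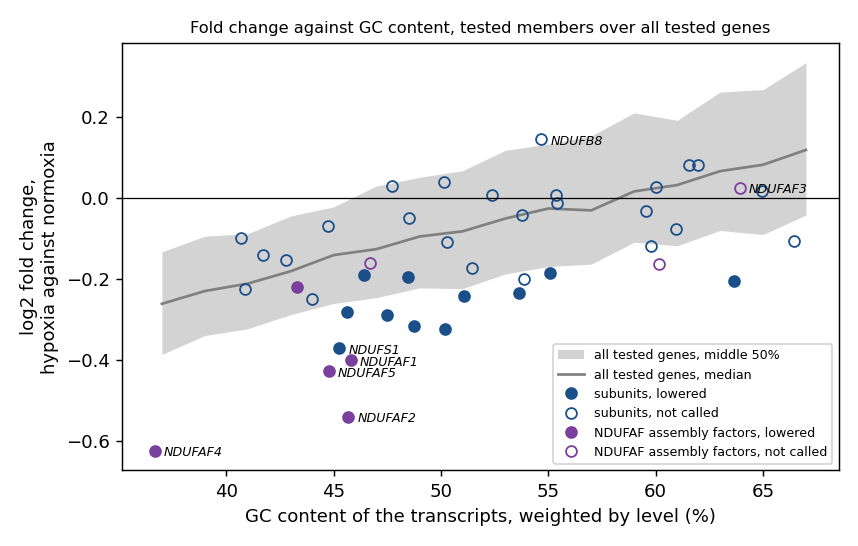
Log2 fold change (y axis) against the GC content of each member's transcripts, weighted by level (x axis); filled points are lowered members, blue are subunits and purple are assembly factors, and the grey line and band are the median and the middle 50% of all tested genes. NDUFAF4, NDUFAF2, NDUFAF5, NDUFAF1 and NDUFS1 lie under the band for genes of their GC content, and NDUFAF3 lies on the GC-rich side near 0.

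Single transcripts gave few calls. Of 116 member transcripts tested among 28538, 2 were lowered and 0 raised, beside 2.85% lowered and 3.33% raised of all tested transcripts. NDUFS1-205, an annotated principal transcript, had 24.2, 22.7 and 24.8 RPKM in normoxia and 17.2, 17.2 and 18.0 in hypoxia (log2 fold change -0.43, SE 0.07, adjusted p = 0.0154). NDUFAF4-201, with 94.9% of the gene's sum, had 5.71, 5.24 and 5.91 RPKM in normoxia and 3.03, 4.07 and 2.94 in hypoxia (log2 fold change -0.62, SE 0.13, adjusted p = 0.0343). Both followed the gene's sum. The nonsense-mediated decay transcript NDUFS1-208 was at 5.63 ± 0.259 and 4.90 ± 0.426 RPKM, a log2 fold change of -0.17 that was not called.

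The share of the principal transcript in the sum of NDUFAF1 (NDUFAF1-201) was 84.9% ± 3.03 in normoxia and 73.5% ± 4.84 in hypoxia. That of NDUFAF2-201 was 96.3% ± 0.645 and 94.99% ± 0.539. NDUFAF7-201 held 71.7% ± 2.66 of its gene in normoxia and 66.5% ± 6.89 in hypoxia, and the nonsense-mediated decay transcript NDUFAF7-209 held 13.0% ± 3.90 and 19.8% ± 5.13. These shares were not tested. The sum of NDUFAF6 was spread over many transcripts, with 37.8% on protein-coding ones, and that of NDUFAF5 lay mainly on NDUFAF5-203 (55.6%). In 5 tested members the most abundant transcript was not annotated as coding: NDUFA3, NDUFA7, NDUFA9, NDUFC1 and NDUFV3. With protein-coding transcripts only, 8 subunits and 5 assembly factors were lowered, beside 27.1% of all genes.

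Other genes of complex I biogenesis and of the respiratory chain were read in the same fit. Of 13 further assembly factors, outside the NDUFAF names, 5 were lowered (38.5%) and 0 raised (median -0.12), beside 24.4% and 12.4% of all tested genes. TMEM70, which serves the assembly of complex I and of ATP synthase, had 28.3, 30.5 and 32.2 RPKM in normoxia and 22.3, 22.6 and 20.7 in hypoxia. It fell without overlap (log2 fold change -0.45, adjusted p = 8.51e-04). COA1, a mitochondrial inner-membrane assembly factor, had 40.5, 42.2 and 40.6 RPKM in normoxia and 29.9, 32.0 and 32.4 in hypoxia, likewise without overlap (-0.38, adjusted p = 0.00104). The list also held partners of NDUFAF1 in the MCIA complex, named after their values were seen. Of these, TMEM126B and ACAD9 were lowered: TMEM126B had a log2 fold change of -0.40 and ACAD9 of -0.22. ECSIT and TMEM186, also partners, were at -0.12 and -0.06 with overlapping groups and were not called.

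The 7 complex I subunits encoded in mitochondrial DNA had a median log2 fold change of -0.25, and 2 were lowered (28.6%, beside 24.4% of all genes). MT-ND2 had 1481, 1282 and 1095 RPKM in normoxia and 1051, 929 and 823 in hypoxia (-0.46, adjusted p = 0.00947). MT-ND1 had 1049, 914 and 715 RPKM in normoxia and 691, 635 and 650.3 in hypoxia (-0.42, adjusted p = 0.0144). In both genes the groups were apart by a narrow gap. The log2 fold changes of MT-ND4L (-0.43), MT-ND4 (-0.25), MT-ND6 (-0.10), MT-ND5 (-0.04) and MT-ND3 (0.06) did not pass the threshold.

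Of 43 tested nuclear genes of complexes II to V and cytochrome c, 14 were lowered (32.6%, beside 24.4% of all genes) and 1 was raised (2.33%, beside 12.4%), with a median of -0.11, the same as that of the complex I subunits to 2 decimals. CYCS, which encodes cytochrome c, fell from 91.1 ± 3.49 to 63.6 ± 9.32 RPKM (-0.52, adjusted p = 0.00205), and SDHD, a membrane anchor of complex II, from 81.5 ± 3.64 to 64.1 ± 3.81 (-0.34, adjusted p = 0.00244). ATP5MC2, a c-ring subunit of ATP synthase, rose from 225 ± 5.19 to 265 ± 14.8 (0.23, adjusted p = 0.0121). Of 8 neighbouring genes that handle NADH or feed electrons to ubiquinone, 3 were lowered (37.5%) and 1 raised (12.5%), beside 24.4% and 12.4% of all genes. AIFM1, needed for the import of respiratory chain proteins, had a log2 fold change of -0.34 (adjusted p = 0.00216), ETFA, part of the electron transfer flavoprotein, -0.42 (adjusted p = 0.00815), and SQOR, which passes electrons from sulfide to ubiquinone, 0.22 (adjusted p = 0.0314).

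NDUFA4, whose product is assigned to cytochrome c oxidase, and its paralogue NDUFA4L2 are not members and moved in opposite directions. NDUFA4 had 17.2, 17.5 and 17.6 RPKM in normoxia and 14.7, 15.2 and 13.1 in hypoxia, and was lowered (-0.27, adjusted p = 0.0143). NDUFA4L2, a known HIF target, had 1.10, 1.04 and 0.506 RPKM in normoxia and 1.10, 1.58 and 1.71 in hypoxia. It was raised (log2 fold change 0.40, adjusted p = 0.0487), from a level near the minimum of the test and with the first hypoxic library level with the highest normoxic one.

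**Figure D5:**
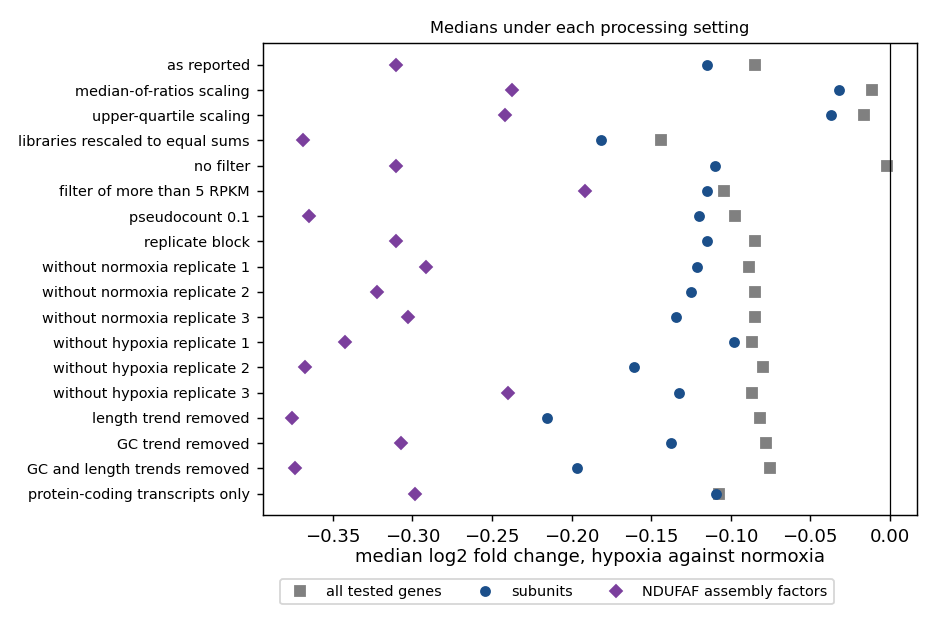
Median log2 fold change (x axis) of all tested genes (grey squares), complex I subunits (blue circles) and NDUFAF assembly factors (purple diamonds) as reported and under each alternative setting (y axis). The assembly-factor median was the lowest of the 3 in each setting, from -0.38 to -0.19, and the subunit median ranged from -0.22 to -0.03.

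The difference between the subunit and the assembly-factor median was 0.20 as reported. It was 0.11 without hypoxia replicate 3 and 0.08 with a filter of more than 5 RPKM, which leaves out NDUFAF1 and NDUFAF5. Otherwise it was 0.16 to 0.25. Scaling moves all genes nearly alike and so could hardly change it. No test was made of this difference, since the members were chosen and are few.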

How the data were processed

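RNA of 6 SUM1315 samples was sequenced, 3 per group. Per the submitters' processing notes, Trimmomatic, HISAT2, SAMtools and Partek were used with GRCh38 or hg38, without versions. The library kit named in the labels does not mark strand. Not given in the sources used here are the annotation release and how strand was treated in counting. RPKM values per Ensembl transcript were deposited by the authors. The table names no unit, which was read from the values: 81.9% to 83.0% of low values times length lay within 0.1 of a whole multiple of 1 step per library, which gave the depth.

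Transcripts were joined by identifier to GENCODE 29 (140004 matched, 84.4%), and RPKM was summed per gene. Unmatched transcripts hold 3.44% to 3.68% of the RPKM. Genes that exceeded 1 RPKM in 3 or more libraries entered limma 3.58.1 (R 4.3.3), fitted to log2(RPKM + 1) with the mean-variance trend and no block, with Benjamini-Hochberg adjustment over all tested genes. Lists and classes were described by counts and medians only. On simulated data with 11884 genes, made for the comparison of hypoxia and normoxia, the fit recovered 100% of 50 genes at each log2 change of 1, -1, 0.5 and -0.5, and 5.66% of its calls were false. Recovery at smaller sizes was not tested, and all lowered subunits lay there, at -0.37 (NDUFS1) to -0.18 (NDUFS3). The lowered assembly factors NDUFAF5 (-0.43), NDUFAF1 (-0.40) and NDUFAF7 (-0.22) lay there too. The simulation gave both groups the same averaged SD, while the median SD in the data was 0.061 in normoxia and 0.111 in hypoxia. The share of false calls in the 6 libraries themselves was not tested.

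Named were the tested core subunits and all NDUFAF genes, up to 3 raised and 3 lowered members per role by adjusted p, the members with the highest and lowest normoxic level, and up to 2 raised and 2 lowered genes of the other lists; names outside this rule are marked in the text, and 1 member is not reported here. The members and lists were chosen with earlier results of these data known. Estimated reads are RPKM times weighted length times depth. Promoter windows are from RefSeq (GRCh38.p14). Alternatives covered scaling, level filter, pseudocount, a replicate block, leaving out each library, GC and length trends (loess, span 0.5) and protein-coding transcripts only. Removing both trends together was added after seeing the data. Python 3.11.15, pandas 2.3.3, numpy 2.4.6 and matplotlib 3.10.9 were used.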

Additional observations from a re-analysis of the deposited data

How the results depend on the processing

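The 11 lowered subunits became 3 with median-of-ratios scaling, 3 with upper-quartile scaling (beside 12.3% of all genes lowered), 20 with libraries rescaled to equal sums, 3 without a level filter, 22 with the length trend removed (25.5% of all genes) and 25 with GC and length trends removed together (29.6% of all genes), a setting chosen after seeing the data. Leaving out 1 library gave 3 to 14: 4, 4 and 3 without normoxia replicate 1, 2 or 3, and 6, 14 and 9 without hypoxia replicate 1, 2 or 3. Without those normoxic libraries the share lowered among all tested genes was 14.7%, 13.6% and 12.8%. The 0 raised subunits became 1 under upper-quartile and 1 under median-of-ratios scaling, and 0 to 3 on leaving out a library. The 5 lowered assembly factors became 3 under both of those scalings and 0 without a level filter (where 5.18% of all genes were lowered). They became 3 of 6 tested with a filter of more than 5 RPKM (31.6% of all genes), and 2 to 5 on leaving out a library. No assembly factor was raised under any setting.

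The median log2 fold change of the subunits, -0.11 as reported, was -0.032 with median-of-ratios scaling, -0.22 with the length trend removed, -0.20 with both trends removed and -0.16 to -0.10 on leaving out a library. That of the assembly factors was -0.19 with the filter of more than 5 RPKM and -0.37 to -0.24 on leaving out a library. Their difference was 0.077 with that filter and 0.11 to 0.24 on leaving out a library. NDUFV1 changed sign under upper-quartile (0.0014) and median-of-ratios scaling (0.0069). NDUFAF3 changed sign with equal sums (-0.043), without hypoxia replicate 3 (-0.015, in a range of -0.015 to 0.056 on leaving out a library), with the GC trend removed (-0.14) and with both trends removed (-0.14). NDUFB8, 0.14 as reported, was -0.0087 with both trends removed. The cause of these shifts was not tested.

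With the replicate number as a block, 13 subunits and 4 assembly factors were lowered, beside 22.4% of all genes. Deviations of same-numbered libraries correlated at 0.0902, 0.0301 and -0.227, so the numbers were not taken to pair the libraries. Under all 17 alternatives NDUFS1 and NDUFA12 kept their calls, and NDUFAB1, NDUFAF2 and NDUFAF4 lost theirs only without a level filter. Depth limits the assembly factors most, at 120 estimated reads for NDUFAF5 in hypoxia replicate 3. Counting error is the only error such reads cover.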
